A study of Homo sapiens with 9 samples.

Results

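This report compares HCN-2 cells transfected with a miR-126-5p mimic with HCN-2 cells transfected with a scrambled control mimic. The groups were taken from the array titles, and the comparison uses 6 of the 9 arrays of the series, 3 per group; the other 3 arrays, of cells given a miR-140-3p mimic, entered the fit for its estimate of the spread. Of 138745 rows of the deposited table, the 36176 whose platform annotation gives exactly 1 gene symbol were tested, and they cover 33616 genes. The paper describes HCN-2 as a human cortical neuronal cell line, here grown in medium with fetal bovine serum. In both groups 3 μL of a 20 μM synthetic RNA from QIAGEN was delivered with HiPerFect, a lipid transfection reagent, and RNA was taken 24 h later, so the control cells carried the reagent and an RNA duplex too. No array of untransfected cells was analysed here, and no source states that the 3 arrays of a group came from separate cultures, so p-values may measure technical spread only. The study's methods name Clariom S chips, whereas the deposited description names Clariom D chips.

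A microRNA guides Argonaute proteins to messenger RNAs that pair with its seed, bases 2 to 8 from its 5′ end, and such messengers are destabilized or translated less. miR-126-5p comes from a hairpin in an intron of EGFL7, a gene best known from endothelial cells, and its partner strand from the same hairpin is miR-126-3p. A mimic is a synthetic duplex that loads the mature strand into Argonaute without need of the hairpin. The mature strand is printed because it is the agent tested, with its seed in capitals; RefSeq places it at chr9:136670616-136670636 on the plus strand of GRCh38.p14.
hsa-miR-126-5p: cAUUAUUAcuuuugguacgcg
Of 2545 human mature microRNAs in the RefSeq table used here, only 1, miR-126-5p itself, has this seed. The row of MIR126, which stands for the hairpin, had log2 values of 2.55, 2.65 and 2.69 in miR-126-5p cells and 2.81, 2.76 and 2.37 in control cells. Those values lay below the array means of the background control rows, 3.67 to 3.89, so this row carries no check of the transfection. EGFL7 had 8.73 ± 0.10 in miR-126-5p cells and 8.82 ± 0.16 in control cells (SD, n = 3 each), less apart than the arrays of 1 group were.

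All values are log2 signals as deposited, so a difference of 1 is a 2-fold change. Over the tested rows, arrays of the same group had correlations of 0.990 to 0.994 across genes, and arrays of different groups 0.987 to 0.992. Array 3 of miR-126-5p lay nearer to the control arrays than arrays 1 and 2 did: the 243 measured genes of the interferon lists averaged 8.68, 8.73 and 9.10 on the miR-126-5p arrays, against 9.84, 10.2 and 10.4 on the control arrays. Array 1 of the control lay apart from the other 5 arrays on the second principal component, with a score of 54.9 where the others ranged from -22.8 to -4.97. Arrays carry no read depth, so their number, 3 per group, limits the precision. The neuronal label of the line was set beside markers of brain and connective tissue, and the levels of most neuronal markers did not bear it out. Of 13 measured neuronal markers, 2 (MAP2 and NEFM) had a mean above 5.67, the median of all tested rows, and RBFOX3, SYP, SNAP25, DCX and GAP43 lay below it. Of 10 measured fibroblast and mesenchymal markers, 9 lay above it, with FN1 at 18.79 ± 0.05 in miR-126-5p cells and 18.81 ± 0.02 in control cells. Summed over the list, neuronal markers ranged from 69.8 to 70.3 on the miR-126-5p arrays and from 70.3 to 72.6 on the control arrays, and fibroblast markers from 143 to 144 on the miR-126-5p arrays and from 142 to 145 on the control arrays. No marker of these lists, nor of short lists of 5 measured astrocytic, oligodendrocytic, endothelial or leukocytic markers each, passed the adjusted p in either direction; CD68, which is in a longer leukocyte list but not in the short one, fell and is described with the lysosomal genes. In bulk RNA of this kind, fewer cells of a type and less RNA per cell cannot be told apart.

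With miR-126-5p, 128 rows fell and 9 rose at a Benjamini-Hochberg adjusted p of 0.05 in limma, which is 0.354% and 0.0249% of the rows tested. Taken as 1 row per gene these were 128 genes lower, or 0.381% of 33616, and 9 genes higher, or 0.0268%. Of the 128, 94 belong to 11 lists of interferon genes and 34 do not, and all 9 genes that rose lie outside those lists. The study's own thresholds, an unadjusted p under 0.05 combined with a log2 difference of more than 0.32 either way, took in 2330 genes lower and 1217 higher, 6.93% and 3.62% of all genes. Those shares are the background over all genes for the lists below. Many of the lists outside interferon hold mainly bright protein-coding genes, those above the median level of 5.67. Of the 10840 such genes outside the interferon lists, 13.9% were lower and 0.839% higher at the study's thresholds. At an unadjusted p under 0.05 alone there were 3764 rows, against 1808.8 that chance alone would give. Each of the 137 genes called had groups that did not overlap, which was true of 16.7% of all genes. Of the rows past the study's thresholds 34.4% were higher, and 49.6% were after the arrays were quantile normalized again, so the balance of lower and higher rows as a whole rests on the scaling.

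**Figure D1:**
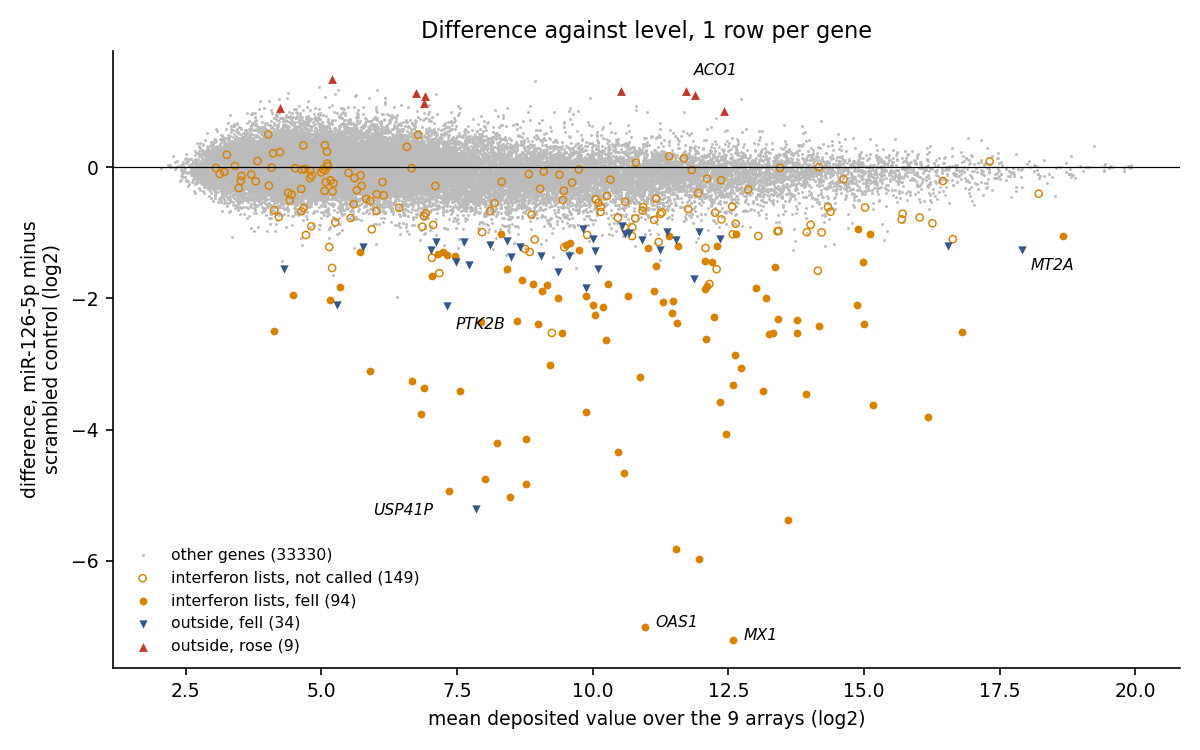
Difference in log2 value, miR-126-5p minus scrambled control, against the mean log2 value over the 9 arrays, 1 point per gene. The 94 interferon-list genes that fell reach -7.21 (MX1), whereas the 34 other genes that fell (blue) and the 9 that rose (red) lie closer to 0, apart from USP41P at -5.21.

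Interferon-stimulated genes and USP41P made up the largest falls. Type I interferons bind the receptor pair IFNAR1 and IFNAR2, whose kinases JAK1 and TYK2 activate STAT factors; these join IRF9 and bind an enhancer called the interferon-stimulated response element, switching on antiviral effectors. In cells, double-stranded RNA sensed by RIG-I, MDA5 and TLR3 is a classical trigger of interferon production. Of 243 measured genes in the 11 lists, 94 fell at the adjusted p, 168 were lower and 1 was higher at the study's thresholds, and the median difference was -0.92, against -0.04 over all genes. Of these 243 genes, 131 are in the study's own supplementary gene list, which was drawn from these arrays, so their direction is not independent evidence. On 81 of the 94 genes, array 3 of miR-126-5p had the highest of its group's values, and on 87 of them array 1 of the control had the lowest. Without miR-126-5p array 3 the median of the lists was -1.02 with 86 genes lower at the adjusted p, and without control array 1 it was -1.09 with 123.

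The antiviral effectors moved furthest. MX1, an antiviral dynamin-like GTPase, had log2 values of 8.28, 8.64 and 11.95 in miR-126-5p cells and 16.45, 16.95 and 17.08 in control cells. With the mimic, arrays 1 and 2 lay far below array 3, yet no value reached the control range. The fall was 7.21 on the log2 scale (standard error 0.72, adjusted p = 0.000481 in limma), or 148-fold. OAS1, which makes oligoadenylates that activate RNase L, had 6.70, 7.04 and 10.46 in miR-126-5p cells and 14.37, 15.24 and 15.63 in control cells. OAS1 fell by 7.02, and its relatives OAS2 and OAS3, also without overlap, differed by -5.82 and -4.82 (adjusted p = 0.00199 and 0.000215). IFIT1, which binds viral RNA that lacks a full cap, had 10.59, 10.67 and 13.13 in miR-126-5p cells and 16.37, 17.01 and 17.15 in control cells. Its neighbors in the genome, IFIT2 and IFIT3, fell as well (-4.07 and -3.62). IFI44L, an interferon-induced protein of the cytoplasm, fell by 5.97 (adjusted p = 0.00334 in limma, or 0.0586 with an intensity trend and robust estimation, where its call was lost).

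The ISG15 system covers a ubiquitin-like protein and the enzymes that attach and remove it. ISG15 had log2 values of 6.03, 5.92 and 7.10 in miR-126-5p cells and 10.81, 11.12 and 11.37 in control cells, and the groups were far apart relative to their spread. HERC5, the ligase that conjugates ISG15, had 6.15, 6.20 and 7.46 in miR-126-5p cells and 10.95, 11.92 and 12.01 in control cells. USP18, the protease that removes ISG15 and also dampens interferon receptor signaling, had 4.89, 5.57 and 5.96 in miR-126-5p cells and 9.81, 10.56 and 10.85 in control cells. These 3 genes had some of the smallest adjusted p-values of the comparison, 2.7e-05 for USP18, 3.41e-05 for ISG15 and 3.51e-05 for HERC5. USP41P, a pseudogene with near-identical sequence to USP18, had 5.18, 5.37 and 7.21 in miR-126-5p cells and 10.52, 11.31 and 11.56 in control cells, and probes may not separate these 2. XAF1, an antagonist of the caspase inhibitor XIAP, fell by 4.67, and IFI27, a small interferon-induced membrane protein, fell by 4.20.

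**Figure D2:**
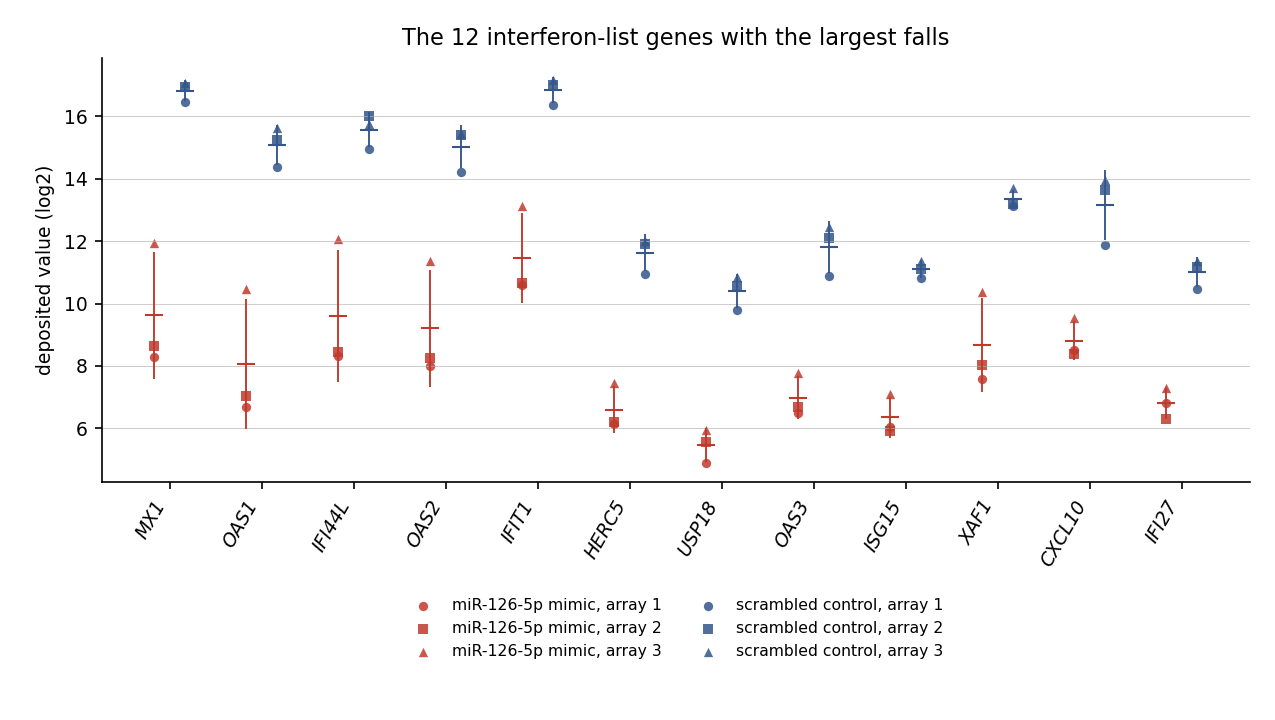
Deposited log2 values of the 12 interferon-list genes with the largest falls, by array (symbols), with mean and SD (bars, n = 3 arrays per group); red is miR-126-5p and blue is the scrambled control. In every gene the 3 red points lie below the 3 blue ones, and the red triangle, array 3, is the highest of its group, for MX1 11.95 against 8.28 and 8.64 on arrays 1 and 2.

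The lists of the pathway's other parts differed in how many members were called. Among 111 effectors, 65 fell and 98 were lower at the study's thresholds (median difference -1.52). Of 6 PARP and DTX3L genes, which modify proteins with ADP-ribose and ubiquitin in antiviral signaling, 4 fell (median -2.30): PARP12 (-2.61), PARP14 (-2.39), PARP9 (-2.31) and DTX3L (-2.28). Of 14 antiviral TRIM and nuclear body genes 4 fell, led by SP110 at -2.53 and TRIM21, the cytosolic antibody receptor, at -2.25. Of 7 guanylate-binding proteins, GTPases that attack intracellular pathogens, 2 fell, GBP4 (-3.02) and GBP1 (-1.99); the call of GBP1 was lost without miR-126-5p array 1 or control array 2 or 3 (adjusted p 0.0533 to 0.0613). Of 6 APOL genes 3 fell, and APOL6 had 9.24, 9.11 and 9.25 in miR-126-5p cells and 10.97, 11.31 and 11.61 in control cells, without the gap between arrays seen in MX1. Of 8 interferon-induced chemokines 2 fell: CXCL10, which draws T cells through CXCR3 (-4.35), and CCL8 (-1.33), the call of CCL8 being lost without miR-126-5p array 2 or 3 or control array 2 or 3.

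The sensors of foreign RNA were lower too. IFIH1, which encodes MDA5, had log2 values of 10.62, 10.51 and 11.91 in miR-126-5p cells and 14.22, 14.55 and 15.01 in control cells. RIGI had 10.84, 10.95 and 12.24 in miR-126-5p cells and 14.27, 14.70 and 15.02 in control cells, and neither gene's groups overlapped. Among the 19 sensor genes these 2, DHX58, TLR3 and the adaptor MYD88 fell, with differences of -3.58, -3.32, -2.53, -2.05 and -1.85 in that order. The kinase TBK1 and the adaptors MAVS and TICAM1 had differences of -0.04, 0.17 and -0.23, none of them past a threshold. In the list of 13 STAT and IRF factors, IRF9 fell by 2.53 and IRF7, which amplifies interferon production, fell by 1.82. Of the 13, 5 were lower at the study's thresholds, among them IRF1 (-0.92, adjusted p = 0.163) and STAT4 (-0.67, adjusted p = 0.31), both without overlap. STAT3 and STAT5B differed by 0.00 and -0.03, and 3 of the 16 factors listed were not analysed here.

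At the top of the pathway little was called. Among 21 interferon ligand genes 0 passed the adjusted p in limma, and 2 were lower and 1 was higher at the study's thresholds, a share near the background. IFNB1, interferon beta, had 3.93, 3.52 and 4.13 in miR-126-5p cells and 4.66, 4.03 and 5.18 in control cells, values around the background rows with groups that overlapped (adjusted p = 0.33). Only 3 of the 21 lay above the median level of all rows, so a change in most of them could not be seen on these arrays. Among 11 receptor, kinase and SOCS genes 0 passed the adjusted p and 0 passed the study's thresholds, although 9 of them were brighter than the median. IFNAR1 had 11.71 ± 0.08 in miR-126-5p cells and 11.58 ± 0.14 in control cells (SD, n = 3 each), with a 95% interval of the difference from -0.24 to 0.51.

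Antigen presentation by MHC class I moved with smaller differences. Of 27 genes 7 fell, 22 were lower at the study's thresholds and the median was -0.68. The peptide transporter subunits TAP1 and TAP2 fell (-1.79 and -1.96), as did the immunoproteasome subunits PSMB8 and PSMB9 (-1.50 and -1.89). The call of PSMB9 was lost without miR-126-5p array 1 or 2 or control array 2 or 3 (adjusted p 0.0572 to 0.068). PSMB8 had 10.65, 10.38 and 10.71 in miR-126-5p cells and 12.21, 11.87 and 12.16 in control cells, with no overlap. The class I chains HLA-B and HLA-C had differences of -0.68 and -0.61 (adjusted p = 0.217 and 0.317), lower at the study's thresholds only. B2M, the light chain of class I molecules, had a difference of -0.40 at a level near the top of the scale. The HLA values are uncertain, since these sequences are alike enough for probes to be shared.

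Promoters of the genes that fell were searched for the core of the interferon-stimulated response element, written GAAANNGAAA, on both strands of the window from 250 bases before to 50 bases after the RefSeq start (GRCh38.p14). Of the 33616 genes, 16474 had a promoter in the table. The core was found in 44 of 75 promoters (58.7%) of interferon-list genes that fell and in 23 of 102 (22.5%) of interferon-list genes not called. It was found in 523 of all 16474 promoters (3.17%), in 0 of 19 promoters of the other genes that fell and in 0 of 3 promoters of genes that rose. Only 19 of the 34 other falls had a promoter in the table, and SERPING1, PLAAT4 and CASP1 were among those without. With so few searched, 0 of 19 cannot be told apart from the 3.17% of all promoters. OAS1 and XAF1, both in the list of largest falls, hold no match in their windows. The windows of 4 of the largest falls are shown because they carry the motif, in capitals, with up to 30 bases on each side; an overlapping pair of cores forms 1 run of capitals, as in ISG15, and a core on the opposite strand appears as its reverse complement, as in IFIT1. The interferon lists were written by hand from genes of this response, so an excess over all promoters comes with their membership. A match is a description of letters and shows no binding.
MX1, chr21:41420539-41420607, plus strand: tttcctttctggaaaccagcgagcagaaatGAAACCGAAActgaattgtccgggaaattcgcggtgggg
ISG15, chr1:1013354-1013423, plus strand: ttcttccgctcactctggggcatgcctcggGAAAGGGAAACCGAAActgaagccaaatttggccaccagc
IFIT1, chr10:89392477-89392546, plus strand: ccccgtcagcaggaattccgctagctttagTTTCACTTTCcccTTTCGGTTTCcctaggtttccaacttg
CXCL10, chr4:76023679-76023747, minus strand: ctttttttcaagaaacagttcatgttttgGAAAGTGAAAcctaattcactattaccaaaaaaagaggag

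Outside the interferon lists 34 genes fell, with a median difference of -1.24, and 9 rose. Of 31 of these falls that were followed through 16 alternatives with a moderated variance, 7 were called in each: USP41P, ZCCHC2, SERPING1, AGRN, PLAAT4, TMEM62 and RN7SL834P. GRIP2 was called in the 15 in which it was tested, since its row was among the dim rows left out in the other. Of the 9 rises 1 was, IGKV1D-39. The count of falls was 9, 8 and 31 without miR-126-5p arrays 1, 2 and 3, and 165, 17 and 9 without control arrays 1, 2 and 3. The rises numbered 2, 3 and 13 without miR-126-5p arrays 1, 2 and 3, and 15, 4 and 2 without control arrays 1, 2 and 3. On 29 of the 34 genes that fell array 3 of miR-126-5p was the highest of its group, as in the interferon genes, and on 27 array 1 of the control was the lowest. The lists were written by hand, so a gene outside them is not thereby outside the interferon response. SERPING1 and PLAAT4, both known to respond to interferon, and USP41P, which probes may not separate from USP18, count among the 34. Whether these falls depend on the interferon response was not tested.

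Synaptic and neuronal genes among the falls were few. GRIP2, a scaffold that anchors AMPA receptors, had log2 values of 4.43, 4.30 and 4.85 in miR-126-5p cells and 5.94, 6.71 and 7.23 in control cells. In miR-126-5p cells it lay below the median level of all rows, and in control cells above it. AGRN, agrin, the proteoglycan that clusters acetylcholine receptors at the neuromuscular junction, had 9.26, 9.36 and 9.40 in miR-126-5p cells and 10.70, 10.76 and 11.24 in control cells. The mimic arrays of agrin lay close together and well below the control, and its call held in all 16 alternatives with a moderated variance. EPHA7, an ephrin receptor of axon guidance, fell by 1.13 (adjusted p = 0.0325), a call lost without any 1 of the 3 miR-126-5p arrays, control array 2 or 3 or miR-140-3p array 1 or 2 (highest adjusted p 0.204). PTK2B, a calcium-activated kinase of the focal adhesion family that is abundant in forebrain neurons, had 6.07, 6.00 and 6.98 in miR-126-5p cells and 7.51, 8.72 and 9.15 in control cells. It fell by 2.11 at an adjusted p of 0.0429, lost without miR-126-5p array 1 or 2, control array 2 or 3 or miR-140-3p array 2 or 3 (highest adjusted p 0.235), and control array 1 lay well below control arrays 2 and 3. ADARB1, the enzyme that edits glutamate receptor transcripts, fell by 0.98.

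In the neuronal lists 3 genes passed the adjusted p, GRIP2, AGRN and EPHA7. Of 35 postsynaptic genes GRIP2 and AGRN fell and 4 were lower and 1 was higher at the study's thresholds, and of 46 axon guidance genes EPHA7 fell and 6 were lower and 1 was higher. In the lists of 25 cytoskeletal, 30 presynaptic and 32 glutamate and GABA receptor genes, 0 passed the adjusted p in limma and 5, 2 and 2 were lower at the study's thresholds. DLG4, which encodes the scaffold PSD-95, had 10.14, 10.34 and 10.46 in miR-126-5p cells and 10.67, 11.08 and 11.17 in control cells, a difference of -0.66 with no overlap that missed the adjusted p (0.223). TUBB2B, a neuronal tubulin, differed by -0.56 at levels of 4.13 and 4.69, close to the background rows. The neurofilament gene NEFM, at 12.90 ± 0.11 in miR-126-5p cells and 12.88 ± 0.35 in control cells (SD, n = 3 each), did not pass a threshold, and its difference had a 95% interval from -0.44 to 0.49. PTN, a heparin-binding growth factor of neurites, had a difference of -0.75 (adjusted p = 0.118), the lowest adjusted p among 10 neurotrophin and receptor genes, of which 3 (PTN, NTRK3 and RET) were lower at the study's thresholds.

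Complement, inflammasome and cell death genes had few calls. SERPING1, the inhibitor of the first complement enzymes and a gene known to respond to interferon, had log2 values of 8.51, 8.61 and 8.69 in miR-126-5p cells and 10.10, 10.13 and 10.38 in control cells. It fell by 1.60, and the spread within each group was small beside that. Among 23 complement genes it was the only one called, with CFB, complement factor B, next at -0.998 (adjusted p = 0.0552). CASP1, the protease that matures interleukin-1 beta, had 7.22, 6.68 and 7.36 in miR-126-5p cells and 8.18, 8.63 and 8.76 in control cells and fell by 1.44. CARD16, a decoy made of the recruitment domain of CASP1 and of like sequence, fell by 1.18, and the probes of these 2 may be shared. CASP1 lost its call without miR-126-5p array 2 or control array 2 or 3 and CARD16 without miR-126-5p array 1 or 2 or control array 3 (highest adjusted p 0.0685 and 0.114). Of 17 inflammasome, pyroptosis and necroptosis genes these 2 fell and 6 were lower at the study's thresholds, among them GSDMD, the pore-forming gasdermin (-0.58), and P2RX7, the ATP-gated channel (-0.79). The lists of death receptor, mitochondrial apoptosis and caspase genes had 15, 21 and 10 members, of which 0 passed the adjusted p and 4, 4 and 1 were lower at the study's thresholds. CASP10, an initiator caspase, differed by -0.78 and BAK1, which permeabilizes mitochondria, by -0.52. In the mitochondrial list PMAIP1 (-0.598) and the anti-apoptotic genes BCL2L2 (-0.511) and MCL1 (-0.398) were also lower at the study's thresholds, without overlap. The adjusted p-values in limma ran from 0.292 for BAK1 to 0.474 for MCL1 in these 4 mitochondrial genes. Of the bright protein-coding genes outside the interferon lists, 13.9% were lower at the same thresholds. Whether the cell death lists differ from that share was not tested. The uncalled genes named here include some that promote apoptosis and some that oppose it, and no effect on apoptosis can be read from them.

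CTSS, the lysosomal protease cathepsin S that trims the invariant chain of MHC class II, had 7.78, 7.77 and 8.28 in miR-126-5p cells and 9.04, 8.83 and 9.35 in control cells. CD68, a lysosomal membrane glycoprotein used as a macrophage marker, had 11.83, 11.85 and 12.08 in miR-126-5p cells and 12.79, 12.98 and 13.26 in control cells. Both fell (-1.13 and -1.09), and both calls were lost without miR-126-5p array 1 or 2 or control array 3 (highest adjusted p 0.154 and 0.114), that of CD68 without control array 2 as well. Of 12 measured microglial and leukocyte genes CD68 was the 1 that fell. CD14, a receptor of monocytes, had 7.12, 6.93 and 7.32 in miR-126-5p cells and 7.95, 7.41 and 8.33 in control cells, lower at the study's thresholds without overlap (difference -0.77, adjusted p = 0.313). The other 10 passed neither threshold, with CSF1R and AIF1 at -0.43 each, PTPRC at 0.21 and ITGAM at 0.16. Whether these markers bear on the fall of CD68 was not tested. Of 29 lysosome and autophagy genes CTSS was the only one called. PLAAT4, a phospholipase and acyltransferase induced by retinoids and interferon, had 9.11, 8.99 and 8.88 in miR-126-5p cells and 10.20, 10.43 and 10.41 in control cells. TMEM62, a transmembrane protein, had 9.54, 9.51 and 9.61 in miR-126-5p cells and 10.66, 10.90 and 10.94 in control cells. These 2 and ZCCHC2, a zinc finger protein (9.15, 8.82 and 9.42 in miR-126-5p cells and 10.80, 10.89 and 11.22 in control cells), were among the most even, with no array that stood apart from its group. DSP, desmoplakin of cell junctions (-1.11), CHKB, a choline kinase (-1.11), and CNDP2, a cytosolic dipeptidase (-1.02), fell, and each lost its call without miR-126-5p array 1 or 2 or control array 2 or 3, and that of CNDP2 was also lost without any other array but control array 1 and miR-140-3p array 1 (highest adjusted p 0.11, 0.116 and 0.191).

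**Figure D3:**
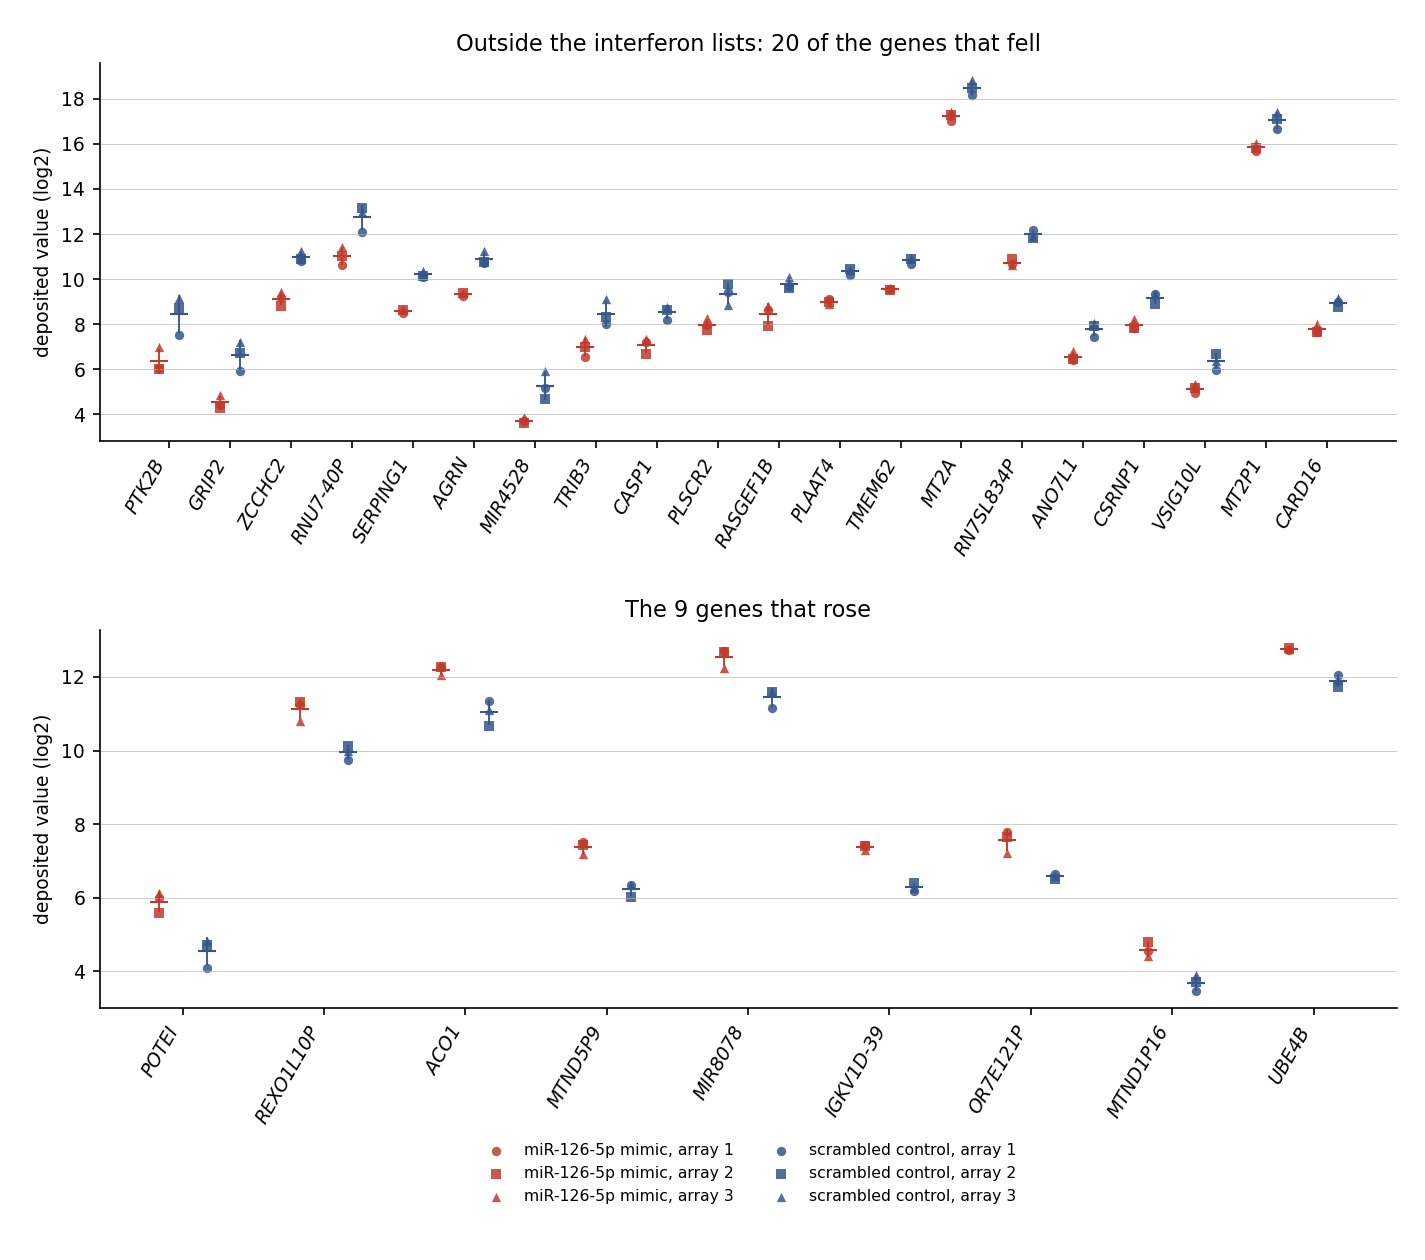
Deposited log2 values by array of 20 genes outside the interferon lists that fell (top, the largest falls after USP41P) and of the 9 genes that rose (bottom), with mean and SD (bars, n = 3 arrays per group); red is miR-126-5p and blue is the scrambled control. No red point crosses into the blue range of its gene; in the lower panel array 3 (triangle) of miR-126-5p is the lowest of its group in 7 of the 9 genes.

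Metallothioneins, small cysteine-rich proteins that bind zinc and copper and are induced by metals, glucocorticoids and stress, lay lower as a family. MT2A had log2 values of 17.01, 17.27 and 17.40 in miR-126-5p cells and 18.18, 18.46 and 18.83 in control cells. It fell by 1.26, with no overlap, and its call was lost without miR-126-5p array 1 or 2 (adjusted p 0.0914 and 0.0556) and without control array 2 or 3 (0.0566 and 0.0619). MT1G, at 12.88, 12.96 and 13.34 in miR-126-5p cells and 13.84, 14.38 and 14.75 in control cells, missed the adjusted p at 0.0504. Of 8 measured members 1 fell, and the median difference was -1.07. In 6 members the groups did not overlap, against 2550 of the 10840 bright protein-coding genes outside the interferon lists. At the study's thresholds 7 members were lower. MT3, the brain form, was the exception, with 6.75, 6.57 and 6.44 in miR-126-5p cells and 6.14, 6.57 and 6.45 in control cells. The 7 members other than MT3 were lower at the study's thresholds in each of the 17 alternatives, and the median ranged from -1.30 to -0.91. The family mean was 11.48, 11.47 and 11.81 on the miR-126-5p arrays, against 12.15, 12.61 and 12.84 on the control arrays, so array 3 of the mimic and array 1 of the control were again the nearest pair. Sequences within the family are close, and the pseudogenes MT2P1 and MT1XP1, which fell as well (adjusted p = 0.0274 and 0.0349), may be read by the same probes.

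The promoter of MT2A is shown because the family moved together and its metal response elements are well described. The letters searched, TGCACNC and TGCGCNC, were chosen after the values were seen and were matched on both strands. They occur in 3 of 3 metallothionein promoters in the table (MT2A, MT1X and MT1H), with 8, 4 and 8 matches, and in 33.5% of all promoters. The window is chr16:56608334-56608633, plus strand of GRCh38.p14, with matches in capitals.
MT2A promoter: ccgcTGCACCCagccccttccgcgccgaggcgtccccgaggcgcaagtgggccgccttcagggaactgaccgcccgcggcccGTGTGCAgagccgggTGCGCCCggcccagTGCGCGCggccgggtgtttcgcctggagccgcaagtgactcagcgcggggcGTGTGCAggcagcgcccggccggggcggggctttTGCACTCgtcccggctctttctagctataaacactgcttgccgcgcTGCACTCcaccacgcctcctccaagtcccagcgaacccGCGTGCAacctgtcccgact

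Genes of the integrated stress response lay below the control, all 28 as deposited and 26 of 28 after quantile normalization again. In this response eIF2 alpha kinases raise translation of ATF4, which induces amino acid synthesis, transport and feedback genes. TRIB3, a pseudokinase that inhibits ATF4, had log2 values of 6.56, 6.997 and 7.36 in miR-126-5p cells and 7.999, 8.30 and 9.09 in control cells. It fell by 1.49 at an adjusted p of 0.0483, which was lost in 11 of 17 alternatives, among them leaving out miR-126-5p array 1 or 2 (0.268 and 0.183) or control array 2 or 3 (0.138 and 0.191). Of 28 measured members 1 fell, 17 were lower and 0 were higher at the study's thresholds, all 28 had a negative difference and 21 did not overlap. Their median was -0.50, beside -0.16 for the 10840 protein-coding genes outside the interferon lists that lie above the median level. Of those 10840, 8355 had a negative difference, 2550 did not overlap, and 13.9% were lower and 0.839% higher at the same thresholds. After quantile normalization again the median was -0.36, with 13 lower, and without control array 3 it was -0.39, with 11 lower and 25 of 28 negative.

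PHGDH, the first enzyme of serine synthesis, had the largest difference of the list after TRIB3, with 6.30, 6.81 and 7.06 in miR-126-5p cells and 7.40, 8.16 and 8.62 in control cells. Its difference of -1.34 had no overlap and an adjusted p of 0.103. The next steps and their mitochondrial partners lay below as well: PSAT1 differed by -0.73, SHMT2 by -0.83, ALDH1L2 by -0.77 and MTHFD2 by -0.40. DDIT3, the transcription factor CHOP, had 8.78, 8.08 and 7.95 in miR-126-5p cells and 9.40, 8.81 and 9.30 in control cells, a difference of -0.90. ATF4 itself, regulated mainly in translation, differed by -0.26 (adjusted p = 0.633), and the cystine transporter SLC7A11 by -0.04. Of 14 aminoacyl-tRNA synthetases, several of which ATF4 induces, 4 were lower at the study's thresholds, with AARS1 at -0.66. The list of endoplasmic reticulum chaperones, which belongs to another arm of stress signaling, had 2 of 17 lower, and HERPUD1 differed by -0.46.

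The amino acid response element, to which ATF4 binds with a C/EBP partner, was searched as TGATGNAA on both strands, a choice made after the values were seen. It occurs in 5 of 23 promoters of the list (21.7%), against 2.80% of all promoters and 1.87% of those of bright protein-coding genes outside the interferon lists. The list was written by hand from genes of this response, so an excess over all promoters comes with its membership and is no result of these arrays. TRIB3, the only member called, had no match in its window. ASNS, asparagine synthetase, is shown with the match in capitals, though it was not called (difference -0.52, adjusted p = 0.302 in limma).
ASNS, chr7:97872439-97872506, minus strand: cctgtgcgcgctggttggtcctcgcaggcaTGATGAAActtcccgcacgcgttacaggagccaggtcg

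**Figure D4:**
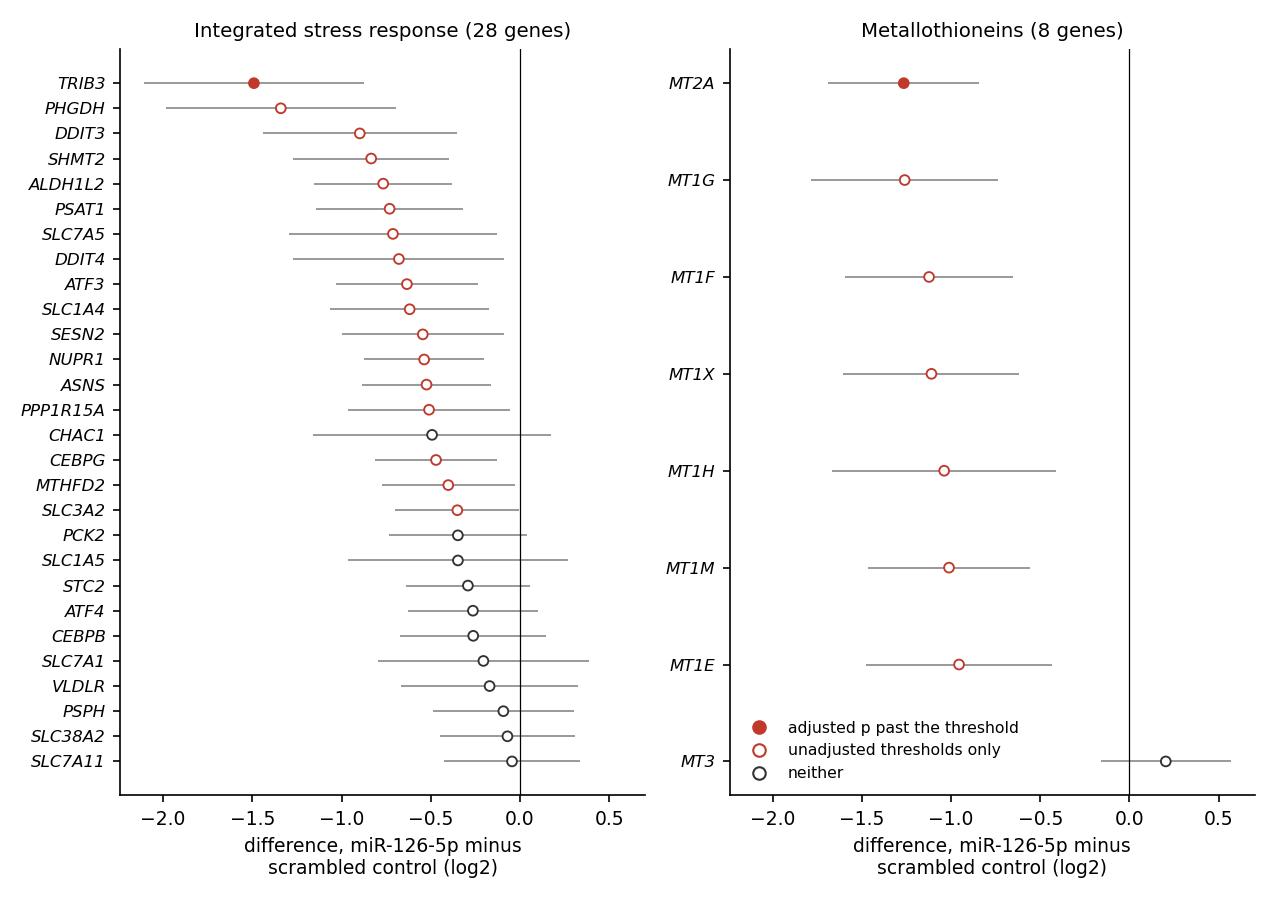
Difference in log2 value, miR-126-5p minus scrambled control, with its 95% interval from limma, for 28 integrated stress response genes (left) and 8 metallothioneins (right); filled points passed the adjusted p and red rings the study's thresholds only. All 28 points on the left lie below 0, and on the right 7 of 8 lie near -1 with MT3 at 0.20.

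Early response and metabolic genes gave smaller differences, and only TXNIP and CSRNP1 of those named here passed the adjusted p. Of 23 genes of the MAPK pathway's early response and feedback, 6 were lower at the study's thresholds (median -0.44): JUNB, JUND, FOS, DUSP1, IER2 and JUN. FOS, a subunit of the factor AP-1, had 13.37, 13.49 and 13.44 in miR-126-5p cells and 14.43, 13.80 and 14.40 in control cells, without overlap (difference -0.78, adjusted p = 0.227). CSRNP1, a nuclear protein of the immediate early class that is in no list, fell by 1.22, a call lost without miR-126-5p array 1 or 2, control array 1 or 3 or miR-140-3p array 2 (highest adjusted p 0.2). TXNIP, the glucose-responsive inhibitor of thioredoxin, fell by 0.90 at an adjusted p of 0.0493, lost in 11 alternatives. In the list of 25 glycolysis and hypoxia genes 6 were lower, led by HK2, hexokinase 2, at 8.67, 8.71 and 8.73 in miR-126-5p cells and 9.36, 9.46 and 9.48 in control cells (difference -0.73, adjusted p = 0.0993). The arrays of HK2 lay close together in each group. RICTOR, the defining subunit of mTOR complex 2, differed by -0.79 (adjusted p = 0.0979), and AXL, a receptor tyrosine kinase that responds to Hippo signaling, by -1.42 (adjusted p = 0.136), with control values of 11.07, 12.19 and 12.71 that spread widely.

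Matrix genes, bright in this line, had 7 of 30 collagens and 7 of 29 matrix proteases and inhibitors lower at the study's thresholds and 0 at the adjusted p. COL18A1, the collagen that releases endostatin, had 11.89, 12.18 and 11.91 in miR-126-5p cells and 12.89, 12.71 and 12.96 in control cells. ADAMTS1, a protease that cleaves proteoglycans, had 10.63, 10.62 and 10.50 in miR-126-5p cells and 11.45, 11.29 and 11.27 in control cells. Neither pair of groups overlapped, and the adjusted p-values were 0.0753 and 0.0911. Of 28 inflammatory and NF-kappa B targets 8 were lower, 27 of 28 were negative and the median was -0.28, with VCAM1, an adhesion molecule, at -0.83. Among the 10840 bright protein-coding genes outside the interferon lists, 8355 were negative. Of 51 ribosomal protein genes listed, 33 were measured. Of these 1 was lower at the study's thresholds and 28 were negative, with a median of -0.08. Cell cycle genes had 4 of 36 lower and CCNA2, cyclin A2, higher (difference 0.49), and cholesterol genes had 2 of 21 lower and SREBF1 higher (12.05, 11.92 and 12.39 in miR-126-5p cells and 11.33, 11.06 and 11.45 in control cells, adjusted p = 0.177).

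**Figure D5:**
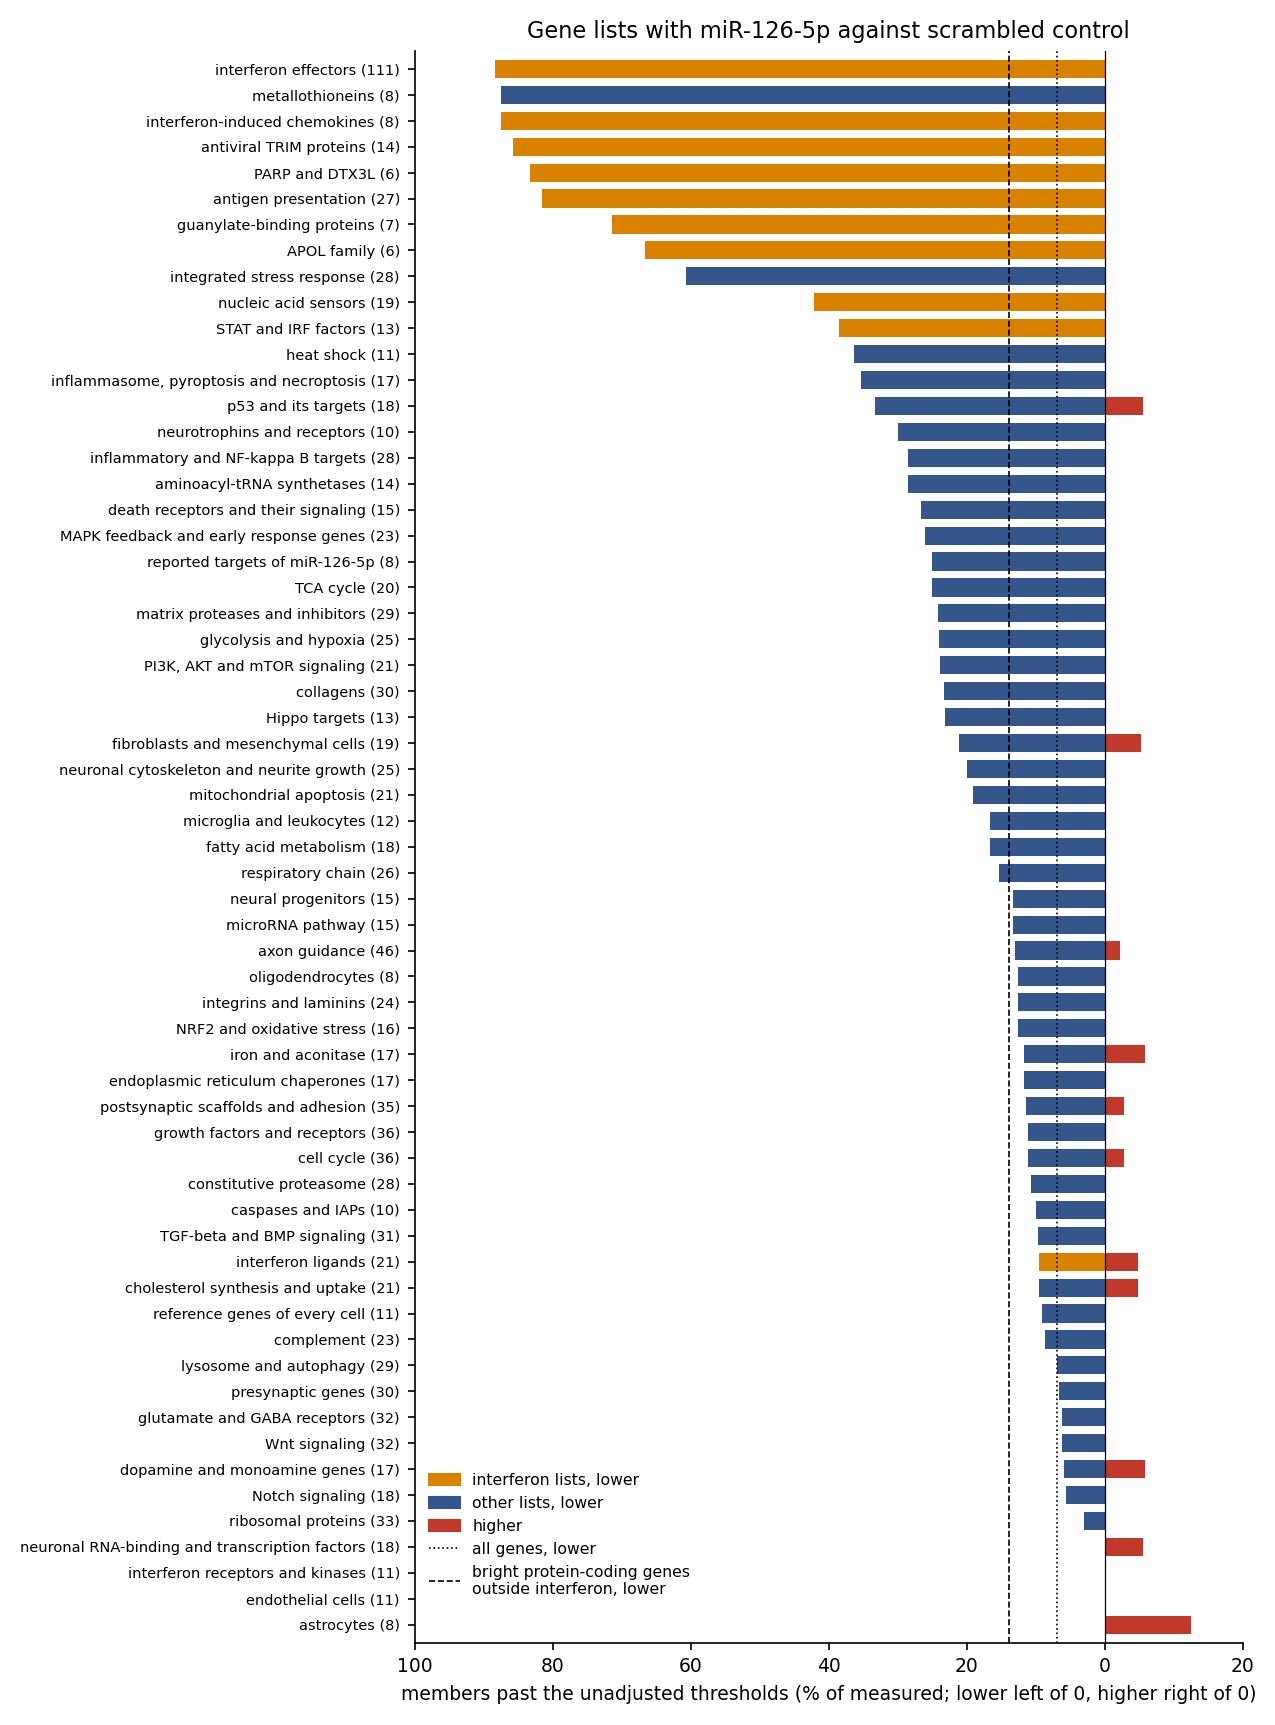
Share of measured members (number in brackets) of each gene list past the study's thresholds, in percent, lower to the left of 0 and higher to the right. The dotted line is the share of all genes that were lower, 6.93%, and the dashed line that of bright protein-coding genes outside the interferon lists, 13.9%; metallothioneins (7 of 8) and the integrated stress response (17 of 28) have the largest lower shares outside the interferon lists.

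Of the 9 genes that rose, 3 are protein-coding. ACO1, the cytosolic aconitase that doubles as iron regulatory protein 1, had log2 values of 12.27, 12.27 and 12.04 in miR-126-5p cells and 11.35, 10.67 and 11.09 in control cells. It rose by 1.16 without overlap, and its call was lost without miR-126-5p array 1 or 2 or control array 2 or 3 (highest adjusted p 0.133). UBE4B, a ubiquitin chain assembly factor, had 12.74, 12.78 and 12.75 in miR-126-5p cells and 12.06, 11.72 and 11.90 in control cells, with nearly equal mimic arrays. Its rise of 0.86 was called in 6 of 17 alternatives, and leaving out any 1 miR-126-5p array, control array 2 or 3 or miR-140-3p array 2 or 3 lost it (highest adjusted p 0.163). POTEI, at 5.98, 5.59 and 6.13 in miR-126-5p cells and 4.11, 4.72 and 4.83 in control cells, belongs to a family of near-identical copies, so its reading is uncertain. SLC25A28, mitoferrin 2, which carries iron into mitochondria and is counted among the interferon effectors, fell by 1.34, and its relative SLC25A37 differed by -0.93 (adjusted p = 0.112). Of the 17 genes of the iron list ACO1 rose and SLC25A28 fell, and SLC25A37 was the only other gene past the study's thresholds. TFRC, the transferrin receptor, had 13.56 ± 0.02 in miR-126-5p cells and 13.40 ± 0.25 in control cells (SD, n = 3 each), and FTL, ferritin light chain, differed by -0.16.

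The other 6 rises were in noncoding or immune receptor loci: IGKV1D-39, an immunoglobulin variable segment (7.44, 7.40 and 7.30 in miR-126-5p cells and 6.19, 6.41 and 6.26 in control cells), the microRNA gene MIR8078, and the pseudogenes REXO1L10P, MTND5P9, OR7E121P and MTND1P16. MTND5P9 and MTND1P16 are nuclear copies of mitochondrial genes, which probes cannot be assumed to separate from each other or from the mitochondrial transcripts. Of 331 such copies, 250 had a positive difference, 52 were higher and 2 were lower at the study's thresholds, with a median of 0.19. The whole class of 9273 pseudogenes leaned the same way, with 640 higher and 170 lower and a median of 0.08, whereas 17579 protein-coding genes had 173 higher, 1935 lower and a median of -0.12. In each of 4 level classes of genes the protein-coding median was negative (-0.17 to -0.05) and the pseudogene median positive (0.04 to 0.12). After quantile normalization again the median of the bright protein-coding genes outside the interferon lists was -0.04 in place of -0.16. NT5DC2, a 5′-nucleotidase domain protein, had 12.96, 12.92 and 13.05 in miR-126-5p cells and 11.64, 11.89 and 12.26 in control cells, a difference of 1.05 that missed the adjusted p (0.0643).

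Genes named in the literature as targets of miR-126-5p, in a list written by hand, were looked at for lower levels. IL17A, which the paper cites as a possible target in H9c2 cells, was not in that list. Of 8 measured, 0 passed the adjusted p in limma, 2 were lower at the study's thresholds and 6 were negative, with a median of -0.21. SEMA3A, a repulsive axon guidance factor, had 6.02, 5.71 and 6.20 in miR-126-5p cells and 6.69, 6.35 and 6.62 in control cells. CXCL12, a chemokine, had 13.42, 13.47 and 13.36 in miR-126-5p cells and 13.65, 13.89 and 13.89 in control cells. Neither pair overlapped, with differences of -0.57 and -0.39 and adjusted p-values of 0.315 and 0.392. ALCAM, ADAM9 and SETD5 had differences of 0.04, -0.01 and -0.22, and that of DLK1 was 0.27. Sites of the seed in transcripts were not searched, as no transcript sequences were used here.

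The miR-140-3p arrays share the control arrays with this comparison, so only the mimics' direct difference was tested. At the adjusted p, 0 of 36176 rows (0%) differed between miR-126-5p and miR-140-3p cells in limma, where 3279 rows had an unadjusted p under 0.05 and the lowest adjusted p was 0.392. MT2A averaged 17.23 ± 0.20 in miR-126-5p cells and 18.03 ± 0.16 in miR-140-3p cells (SD, n = 3 each), a difference of -0.80 with a standard error of 0.19. SERPING1 differed by -0.69 (standard error 0.20) and AGRN by -0.70 (0.21) in the same direction, and ACO1 by 0.25 (0.19). None of these passed the adjusted p (0.427 to 0.730), which does not show that the mimics act alike. MX1 averaged 9.62 ± 2.03 in miR-126-5p, 11.29 ± 0.64 in miR-140-3p and 16.83 ± 0.33 in control cells. ISG15 averaged 6.35 ± 0.65, 6.60 ± 0.43 and 11.10 ± 0.28 in the same order. Without untransfected cells, a fall with the mimics and a rise in the scrambled control cannot be told apart.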

How the data were processed

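RNA of HCN-2 cells was measured on Affymetrix Clariom arrays. The authors deposited one table of log2 values for 9 arrays; RMA, Partek and Affymetrix Expression Console are the tools in the submitters' notes, and their versions are not given in the sources used here. The base of the log was not stated and was taken as log2 from the range of the values, 1.80 to 19.932. Rows with several symbols (1119), control rows (2995) and rows the annotation does not list (98455) were left out.

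All 9 arrays were fitted in 1 model in limma (version 3.58.1, R 4.3.3), by lmFit and then eBayes with 6.32 prior degrees of freedom, with the contrast miR-126-5p minus scrambled control and Benjamini-Hochberg adjustment over 36176 rows. A call was an adjusted p under 0.05; the study's thresholds were an unadjusted p under 0.05 combined with a log2 difference of more than 0.32 either way. Each gene was represented by its row with the highest mean over 9 arrays. Genes above the median of 5.67 were called bright. The fit was tested on simulated data. By rule, the named genes were the largest called falls inside and outside the interferon lists, the largest called rises, the lowest-p and defining members of each list, the largest non-overlapping differences past the study's thresholds only, and the reported targets and host gene, 338 in all; the members, lists and rules were chosen with earlier results of these data known, and the nuclear copies of mitochondrial genes and the metal and amino acid element letters after their values were seen. Other genes named beside a list are members of it picked after their values were seen. Alternatives were 2 groups in the fit, a replicate block, an intensity trend with robust estimation, centring, quantile normalization again, dim rows left out, every row, no moderation, and leaving out each array. Promoter and microRNA sequences are RefSeq's, GRCh38.p14. Seed sites in transcripts were not analysed here.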

Additional observations from a re-analysis of the deposited data

How the results depend on the processing

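Of the 137 calls, 99 were shared with a fit of 2 groups, 135 with an intensity trend and robust estimation, 137 after centring, 120 after quantile normalization again and 79 to 134 when 1 array was left out. Of the 77 called genes that were followed, 0 changed the sign of their difference in any alternative; of the 261 named genes that were not called 27 did, among them ADAM9, ALCAM, STAT3, MIR126 and EGFL7. As reported there were 128 rows lower and 9 higher at the adjusted p, 2470 lower and 1293 higher at the study's thresholds, and 34 lower and 9 higher outside the interferon lists. With 2 groups in the fit, 5 rows were higher, and 21 were lower and 5 higher outside the lists. With the trend, 202 were lower, 86 of them outside the lists. Without dim rows, 208 were lower and 18 higher, 629 were higher at the study's thresholds, and 99 were lower and 18 higher outside the lists. With every row of the table, 4 were higher, all outside the lists, and 3959 were lower and 7979 higher at the study's thresholds. With no moderation of the variance 0 passed the adjusted p in either direction, inside or outside the lists, and 1942 were lower and 830 higher at the study's thresholds. Leaving out 1 array gave 78 to 289 lower and 2 to 15 higher at the adjusted p, 1526 to 3269 lower and 956 to 1567 higher at the study's thresholds, and 8 to 165 lower and 2 to 15 higher outside the lists. The cause of these changes was not tested.

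Arrays with the same replicate number did not deviate together (correlations 0.060, 0.017 and 0.104), so the numbers do not pair them. With a replicate block 115 rows were lower and 6 higher, 2417 lower and 1337 higher at the study's thresholds, and 29 lower and 6 higher outside the lists. The share of higher rows at the study's thresholds was 34.4% as reported, 49.6% after quantile normalization again and 66.8% with every row. With 3 arrays per group, dim rows near the background limit what can be seen.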
